A study of Mus musculus with 8 samples.

Results

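The Bcl2 family decides whether a mitochondrion releases cytochrome c, and with it whether a neuron dies by apoptosis. Its expression was followed here in layers II to IV of the neonatal mouse neocortex after loss of Bcl11a, a DNA-binding zinc finger protein that cortical projection neurons express. The genes were 10 regulators picked by symbol: the anti-apoptotic guardians Bcl2, Bcl2l1, Bcl2l2 and Mcl1, the effectors Bax and Bak1, and the BH3-only genes Bid, Bcl2l11, Bbc3 and Hrk. Of these, 9 were measured, each by 1 probe set, among 19938 genes in all, and Bax was not analysed here. Mutant pups carried 2 floxed Bcl11a alleles (Bcl11a flox/flox) and control pups 1 (Bcl11a flox/+), and all pups carried 1 copy of Emx1 IRESCre. Cre from the Emx1 locus acts in the cortical progenitors that make excitatory neurons and many glial cells, so the controls were heterozygous there, and interneurons and microglia lie outside that lineage. Tissue was taken by laser microdissection at postnatal day 2 from 4 mutant and 4 control pups and hybridised to Affymetrix Mouse Gene 1.0 ST arrays, 1 array per pup.

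As background, guardian proteins hold the effectors in check at the outer mitochondrial membrane, BH3-only proteins sense stress or loss of trophic support and neutralise the guardians or engage the effectors directly, and freed effectors open the membrane. Cytochrome c then assembles with Apaf1 to activate caspase-9. Many neurons of the neonatal cortex die in this way in normal development, and the title of the study places Bcl11a and the transcriptional repressor Bcl6 in a pathway that controls the death of projection neurons. The comparison asks whether the messages of the family differ between mutant and control tissue. Readings are given as log2 intensities, a difference of 1 being a 2-fold change, and "rose" or "fell" is used of genes with a Benjamini-Hochberg adjusted p under 0.05 over all genes in a limma fit.

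The genotype was visible in the targeted gene. Bcl11a read 8.56, 8.85, 8.37 and 8.75 in the mutants, against 10.59, 10.52, 10.34 and 10.34 in the controls, a log2 difference of -1.82 (SE 0.10, adjusted p = 4.902e-07). Bcl6 fell by the same amount, -1.82 (SE 0.12, adjusted p = 1.652e-06), to 6.06 ± 0.21 in mutants, against 7.88 ± 0.23 in controls (SD, n = 4). Array medians ran from 4.83 to 4.91, and control 1 stood apart on the second principal component and had the lowest array weight, 0.556. Background was read from Y-linked genes in pups with high Xist, where readings reached 4.31, and a gene whose mean lies at or below that floor may not be detected. All 9 upper-layer markers measured lay above it, as did all 10 markers of the deep layers, which the labels do not include in the dissected tissue.

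Bcl2 and Bid rose in the mutant layers, and no member fell. These 2 made up 22.2% of the 9 measured members, where 4.15% of all genes changed and 2.36% were higher in the mutant. The members were chosen with earlier results of these data known. The shares in this paragraph therefore describe the members and do not test for an excess among them. The count of 0 falls by limma was also 0 at an unadjusted p under 0.05, without variance moderation and with trended robust variances, and 1.79% of all genes fell. At an unadjusted p under 0.05, 4 members were higher, where 8.54% of all genes were higher and 5.45% lower. The other 7 members did not pass. Differences were above 0 for 8 of the 9, with a median of 0.14, while 57.5% of all genes had differences above 0, with a median of 0.017. Of the 8 members above the background floor, 7 had differences above 0. Groups did not overlap for 3 members (Bcl2, Bcl2l1 and Bid), where 9.25% of all genes did so, 5.46% with mutants higher and 3.79% with mutants lower.

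**Figure D1:**
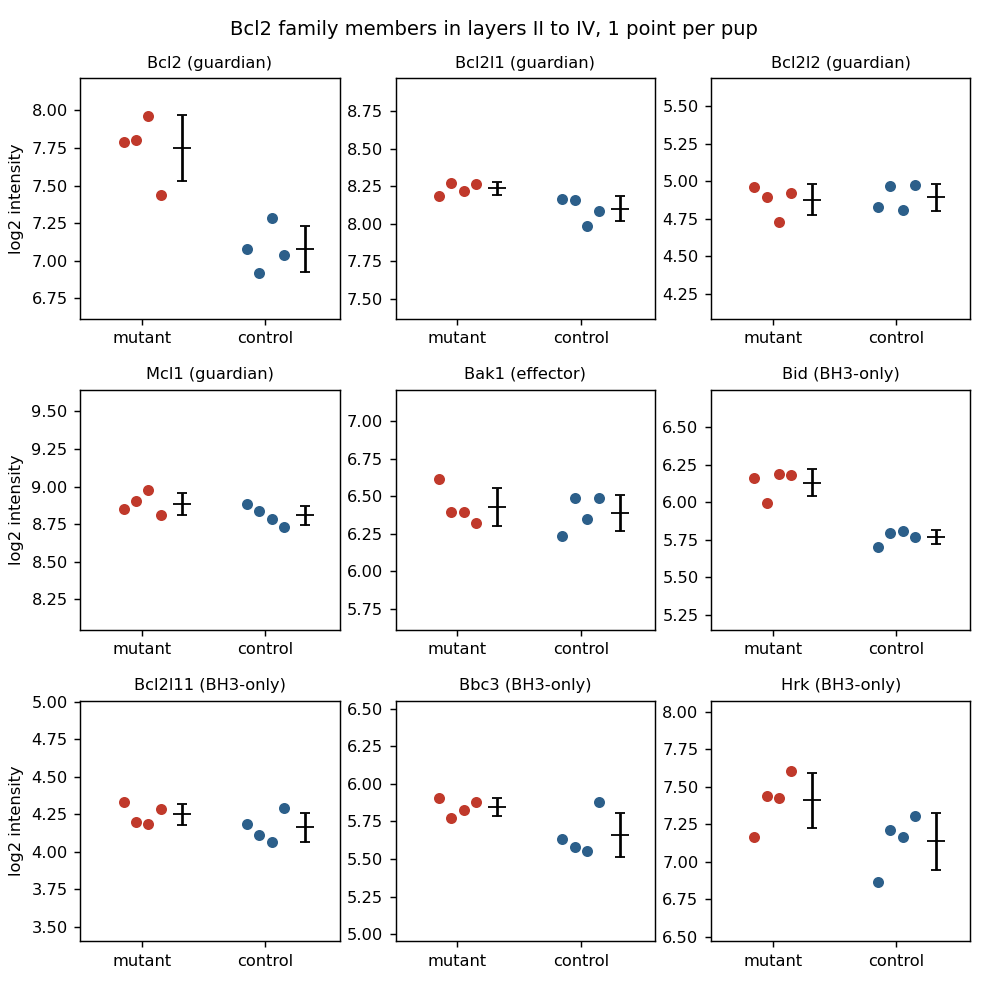
Log2 intensity of each of the 9 measured members, 1 point per pup (replicates 1 to 4 from left to right), with the mean and SD to the right of each group. Every panel spans the same range of log2 units but is centred on its own gene. The mutant and control points are clear of each other for Bcl2 and Bid, and narrowly for Bcl2l1.

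Among the guardians, Bcl2, the founding member of the family and a restraint on Bax and Bak1, had the largest difference. It read 7.79, 7.80, 7.96 and 7.44 in mutants 1 to 4, against 7.07, 6.92, 7.29 and 7.04 in controls 1 to 4. Every mutant lay above every control, with the lowest mutant, number 4, above the highest control, number 3. The mean was 7.75 ± 0.22 in mutants and 7.08 ± 0.15 in controls (SD, n = 4), a 1.59-fold rise (95% interval 1.35 to 1.87), or 0.67 on the log2 scale (SE 0.11, adjusted p = 0.00226). The exact two-sided permutation p was 0.0286, the smallest that 4 arrays against 4 can give. Bcl2 lost its call when each gene's variance was taken from its own 8 arrays alone (adjusted p = 0.0963), and kept it without any 1 array (adjusted p from 7.073e-04 to 0.0116).

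Bcl2l1, whose long product Bcl-xL protects postmitotic neurons, read 8.18, 8.27, 8.22 and 8.27 in mutants, against 8.17, 8.16, 7.99 and 8.09 in controls. The groups met without overlapping, and the smallest possible exact permutation p of 0.0286 was reached. The log2 difference of 0.14 (SE 0.065) did not pass over all genes by limma (adjusted p = 0.378), and its interval in fold terms ran from 0.997 to 1.21.

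Mcl1, a short-lived guardian needed by developing neurons, read 8.85, 8.90, 8.98 and 8.81 in mutants, against 8.88, 8.83, 8.79 and 8.73 in controls. The groups overlapped, and the log2 difference was 0.076 (SE 0.065, adjusted p = 0.707). Bcl2l2, which encodes the guardian Bcl-w, read 4.96, 4.90, 4.73 and 4.92 in mutants, against 4.83, 4.96, 4.81 and 4.97 in controls. The 2 groups were interleaved, with a log2 difference of -0.017 (SE 0.073, adjusted p = 0.963), and the sign turned without mutant 3, control 2 or control 4. The 95% intervals of the fold allowed 0.956 to 1.16 for Mcl1 and 0.887 to 1.10 for Bcl2l2.

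Taken without Bcl2, the other 3 guardians averaged 7.31 to 7.36 in mutants, against 7.19 to 7.32 in controls, and these ranges overlapped.

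The effector Bak1, which forms pores in the outer mitochondrial membrane, read 6.61, 6.39, 6.39 and 6.32 in mutants, against 6.24, 6.49, 6.35 and 6.49 in controls. The groups overlapped broadly, with mutant 1 as the highest and control 1 as the lowest array. The log2 difference was 0.041 (SE 0.082, adjusted p = 0.906), with a fold interval of 0.910 to 1.16, and it turned negative without mutant 1 or control 1. Whether Bax, the effector on which much neuronal death depends, differed was not analysed here.

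Of the 4 BH3-only genes, which start the mitochondrial pathway, 1 rose, 0 fell and 3 did not pass. The differences of Bid, Bbc3 and Hrk were above 0, and Bcl2l11 lay below the floor. Bid, which caspase-8 cleaves into its active form, read 6.16, 5.99, 6.19 and 6.18 in mutants, against 5.70, 5.79, 5.81 and 5.77 in controls. Every mutant lay above every control, and mutant 2 was the lowest of its group by a clear gap. The mean was 6.13 ± 0.092 in mutants and 5.77 ± 0.048 in controls (SD, n = 4), a 1.28-fold rise (95% interval 1.16 to 1.42), or 0.36 on the log2 scale (SE 0.066, adjusted p = 0.00599), with an exact two-sided permutation p of 0.0286. Bid kept its call under every alternative tried, with adjusted p from 0.00388 to 0.0422. The mean of Casp8, the protease upstream of Bid, named after its values were seen, was 4.98 in mutants and 5.07 in controls, a log2 difference of -0.084 that did not pass (adjusted p = 0.853).

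Hrk, also called DP5, a BH3-only gene known from neurons deprived of trophic factor, read 7.16, 7.44, 7.43 and 7.61 in mutants, against 6.87, 7.21, 7.17 and 7.30 in controls. The groups overlapped, since mutant 1 lay below 3 of the controls. Its log2 difference of 0.27 (SE 0.11) was the largest among members that did not pass (adjusted p = 0.235). The interval of the fold, 1.03 to 1.42, is for Hrk alone and is not adjusted for the number of genes. Each mutant lay above the control of the same number. With the replicate number as a block, Hrk passed by limma (SE 0.061, adjusted p = 0.0282). The labels do not say whether same-numbered pups are pairs, and the call of Hrk depends on that choice.

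Bbc3, which encodes PUMA, a p53-responsive BH3-only protein, read 5.91, 5.77, 5.83 and 5.88 in mutants, against 5.63, 5.58, 5.55 and 5.88 in controls. Controls 1 to 3 lay below all mutants and control 4 lay among them. The log2 difference was 0.19 (SE 0.078, adjusted p = 0.290). Bcl2l11, which encodes Bim, read 4.33, 4.19, 4.19 and 4.29 in mutants, against 4.18, 4.11, 4.06 and 4.29 in controls. Both means, 4.25 in mutants and 4.16 in controls, lay below the floor of 4.31. They fell within the Y-linked background readings, which ran from 3.33 to 4.31. Bcl2l11 may therefore not be detected, and no level or change is read from it here (log2 difference 0.087, limma adjusted p = 0.678). Without Bid and Bcl2l11, the other 2 BH3-only genes averaged 6.54 to 6.74 in mutants, against 6.25 to 6.59 in controls, and these ranges overlapped.

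**Figure D2:**
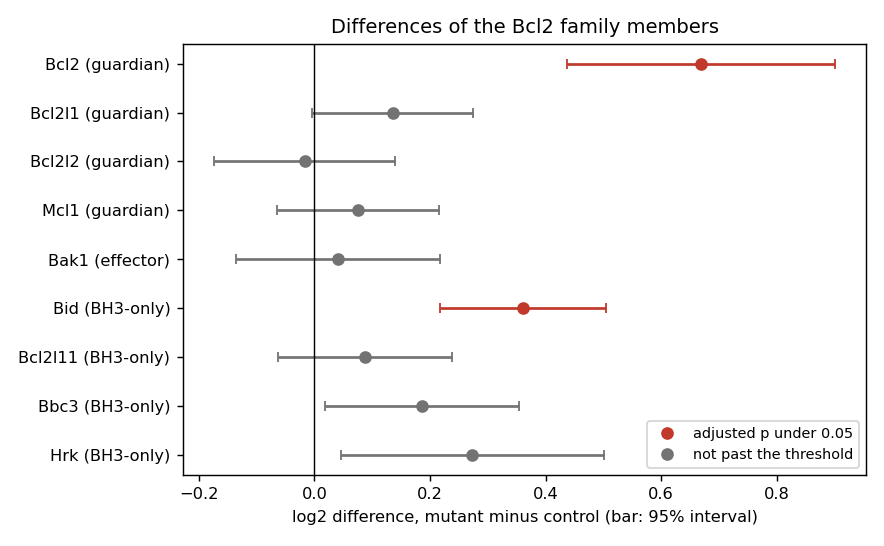
Log2 difference of each measured member, mutant minus control, with the 95% interval of the limma fit, ordered by role. Intervals of Bcl2 (0.44 to 0.90) and Bid (0.22 to 0.50) lie above 0 and are drawn in red for an adjusted p under 0.05, and the grey intervals of Bbc3 and Hrk lie just above 0 without passing over all genes.

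The anti-apoptotic Bcl2 and the pro-apoptotic Bid thus rose on the same arrays. Within each array, the log2 ratio of Bcl2 over Bid relative to its control mean ran from -0.053 to 0.50 in mutants, against -0.19 to 0.17 in controls. The ranges overlapped, and the mean difference of 0.31 was not tested. The standard errors of the members' log2 differences lay between 0.065 and 0.11. Splice forms cannot be told apart, because the annotation ties the probe set of Bcl2 to 2 curated RefSeq transcripts, that of Bcl2l1 to 4 and that of Bcl2l11 to 5, and short forms of Bcl2l1 are known to promote death where the long form prevents it. These are levels of messenger RNA, whereas Bid is switched on by cleavage and Mcl1 is limited by degradation of the protein. In bulk tissue, fewer cells of a type and less RNA per cell cannot be told apart.

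The promoters of both members that rose were read from RefSeq (GRCm38.p6), as the 250 bases before the annotated start, because both are members that moved in the same direction and both windows are rich in G and C. Capitals mark GC boxes, the letters GGGCGG on either strand, a motif chosen after the sequences were seen. The Bcl2 window is chr1:106714291-106714540 on the minus strand and the Bid window chr6:120916825-120917074 on the minus strand, both written 5′ to 3′ along the gene.
Bcl2: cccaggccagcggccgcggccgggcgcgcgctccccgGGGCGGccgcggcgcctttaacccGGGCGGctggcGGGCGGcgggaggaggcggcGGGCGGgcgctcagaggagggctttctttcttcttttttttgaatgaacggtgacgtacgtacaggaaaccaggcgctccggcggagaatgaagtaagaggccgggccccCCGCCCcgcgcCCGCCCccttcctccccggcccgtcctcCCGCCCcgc
Bid: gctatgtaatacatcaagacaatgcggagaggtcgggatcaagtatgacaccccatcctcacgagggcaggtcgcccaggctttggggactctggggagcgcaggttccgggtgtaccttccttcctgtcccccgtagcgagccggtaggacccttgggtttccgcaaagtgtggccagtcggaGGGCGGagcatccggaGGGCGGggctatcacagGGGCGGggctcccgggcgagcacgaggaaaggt
The Bcl2 window holds 7 GC boxes and is 74.8% G and C, and the Bid window holds 3 and is 63.6% G and C, where the median over all windows of that length is 52.4%. In windows of 250 bases before to 50 after the start, 35.7% of all 32851 windows hold a GC box, as do 11 of the 15 windows of the 10 members. Some genes have several of those 15 windows, and windows of the same gene can overlap. The windows of Bbc3, which did not pass, hold 4 to 7, and those of Bak1 and Bcl2l1 hold 0. Each window of Bcl2l11, which did not pass, and of Bax holds 3, as does that of Bid. The 2 windows shown were picked as rich in G and C, so their content and box counts are not a test. The core motif of Bcl6, TTCCTNGAA on either strand, is in 1.59% of all windows and in 0 of those 15. The motif TGACCA, known for Bcl11a from globin regulation in blood cells, is in 13.6% of all windows and in 2 of the 15, 1 of Bak1 and 1 of Bcl2l1. These matches describe the letters of short windows and were not set against binding data.

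The rest of the pathway was followed in lists of genes by role. Of 12 other Bcl2 family genes measured, 0 rose and 0 fell by limma, and 1 was higher at an unadjusted p under 0.05. That gene was Bok, an effector-like relative of Bax and Bak1, with a mean of 7.58 ± 0.10 in mutants and 7.38 ± 0.09 in controls (SD, n = 4, log2 difference 0.19, adjusted p = 0.206). The median log2 difference of these genes was -0.0064, against 0.017 over all genes, and 3 of them (Bcl2l10, Bcl2l14 and Bcl2l15) lay at or below the floor.

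Of 14 genes of the apoptosome, caspases and their inhibitors, 0 rose and 0 fell by limma, while 3 higher and 1 lower had an unadjusted p under 0.05. Casp6, an executioner caspase, had the smallest p, with a mean of 5.22 in mutants and 5.0 in controls (log2 difference 0.22, adjusted p = 0.157). Of 12 mitochondrial and endoplasmic reticulum partners, 0 rose and 0 fell by limma, with 1 in each direction at an unadjusted p under 0.05. Mtch2, the mitochondrial receptor of cleaved Bid, had the smallest p there, with a mean of 10.88 in mutants and 11.12 in controls (log2 difference -0.24, adjusted p = 0.139). A dimmer probe set of Mtch2 had a log2 difference of -0.28 (limma, adjusted p = 0.0630). The mean of both gave -0.26 (adjusted p = 0.0838), and none of these passed. These counts of 0 stayed at 0 under all 21 alternative settings.

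Of 9 genes that govern turnover or sequestration of Mcl1 and BH3-only proteins, Fbxw7 rose, 0 fell and 8 did not pass. Fbxw7, the substrate receptor of a ubiquitin ligase that marks Mcl1 among other proteins for degradation, read 8.95, 9.03, 8.99 and 8.78 in mutants, against 8.13, 8.38, 8.31 and 8.26 in controls. All mutants lay above all controls, with a log2 difference of 0.67 (SE 0.076, adjusted p = 1.595e-04). A dimmer probe set of the same gene had a log2 difference of 0.17 that did not pass (adjusted p = 0.666), and the mean of both gave 0.42 (adjusted p = 0.0290).

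Of 19 upstream regulators measured, Foxo1 rose, 0 fell and 18 did not pass. Foxo1, a forkhead factor known to drive Bcl2l11 and Bbc3 in several cell types, read 7.51, 7.58, 7.52 and 7.43 in mutants, against 7.34, 6.57, 6.75 and 6.77 in controls. The mutants were tightly grouped above all controls, and control 1 lay closest to them. The log2 difference was 0.65 (SE 0.13, adjusted p = 0.00972), and the call was lost without variance moderation (adjusted p = 0.179). The median log2 difference of this list was -0.027.

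**Figure D3:**
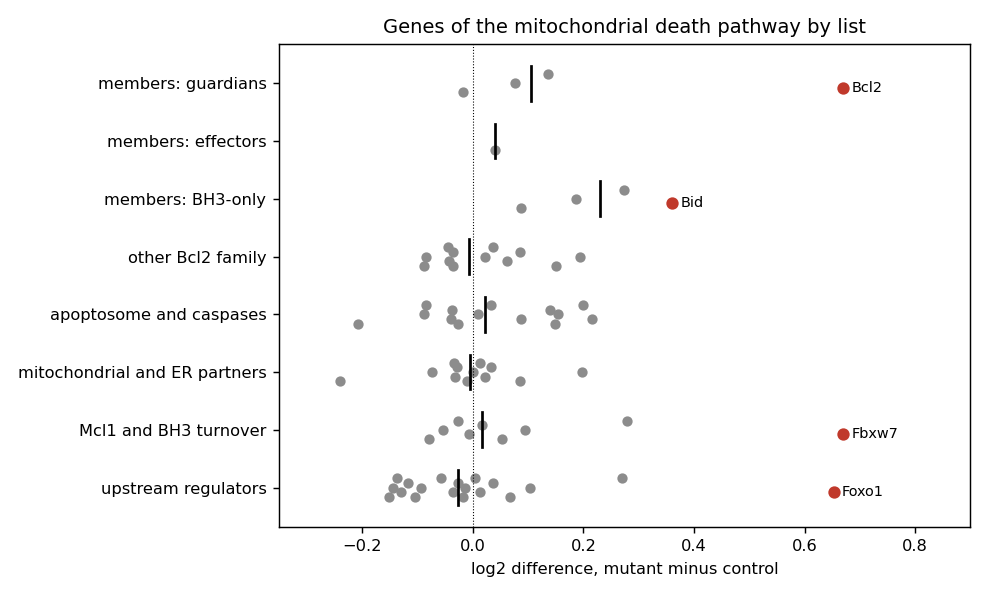
Log2 difference, mutant minus control, of each measured gene of the family and of the wider death pathway, 1 point per gene, with the median of each list as a black bar. Red points with names passed an adjusted p of 0.05, and Bcl2, Fbxw7 and Foxo1 lie at 0.65 to 0.67 and Bid at 0.36, to the right of all other genes.

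Markers of cell types were read on the same arrays. The mean level of 11 interneuron markers was 6.95 to 7.03 in mutants, against 7.30 to 7.37 in controls, and 0 rose and 2 fell, Npy (log2 difference -1.63, adjusted p = 9.395e-04) and Dlx1 (-0.46, adjusted p = 0.00189). The mean of 9 upper-layer markers was 8.94 to 9.12 in mutants, against 9.17 to 9.31 in controls, and 0 rose and 3 fell, with Cux2 (-1.29) and Mdga1 (-1.07) falling most. Without those 2, chosen after their values were seen, the mean of the other 7 was 9.24 to 9.45 in mutants, against 9.22 to 9.37 in controls, and 4 of the 9 markers had differences above 0, the largest that of Unc5d (0.46, adjusted p = 0.0659). The mean of 10 deep-layer markers was 7.52 to 7.63 in mutants, against 7.16 to 7.47 in controls, and Ldb2 rose (1.38) while Ntsr1 fell (-0.90). Control 1 was the lowest array. Relative to the control mean it lay at -0.21, the other controls at 0.048 to 0.095 and the mutants at 0.15 to 0.26. Ldb2 had the largest difference of this list, and the list mean without it was not taken. Of 10 markers of astrocytes and radial glia 0 rose and 2 fell, Vim (-0.36) and Glul (-0.33), and their mean level was 7.62 to 7.79 in mutants, against 7.74 to 7.88 in controls.

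No marker passed in the lists of the oligodendrocyte lineage (7 genes), microglia (10), vessels (10), meninges (8) and dividing cells (7), in which 2, 1, 3, 2 and 0 genes were lower at an unadjusted limma p under 0.05 and 0 were higher, where 5.45% of all genes were lower and 8.54% higher. Of the 10 microglial markers, 6 were at or below the floor, P2ry12, Aif1, C1qb, Tmem119, Itgam and Tyrobp. Of 7 erythroid markers, 2 were measured and 0 passed by limma, also at an unadjusted p under 0.05. The part of these cell types in the rise of Bcl2 and Bid was not tested.

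**Figure D4:**
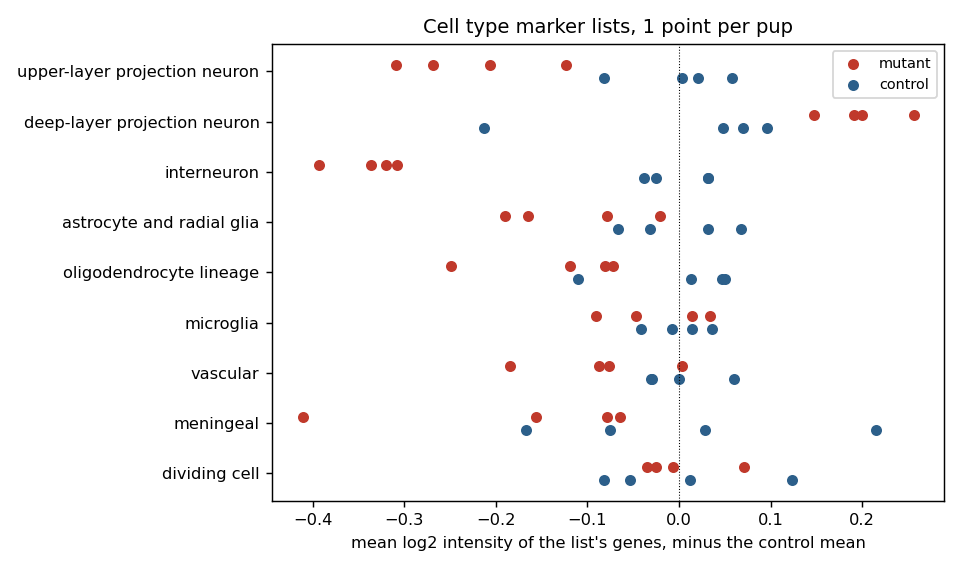
Mean log2 intensity of each marker list on each array, minus the mean of the controls, with mutants in red above controls in blue. The 4 mutants lie apart from the 4 controls for the interneuron, upper-layer and deep-layer lists and overlap them for the others.

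The pattern of both risers over the 8 arrays was set against all 18616 other genes with an official name, as a description over arrays that fall into 2 genotypes. The genes closest to Bcl2 were Vcam1 (Pearson r = 0.990), Fuom (0.987) and Adamts1 (0.978). With each genotype's mean taken off, r was 0.947 for Vcam1, 0.940 for Fuom and 0.880 for Adamts1, and of the 3 only Adamts1 rose (log2 difference 0.78, adjusted p = 7.401e-04). For Bid they were Tbc1d4 (r = 0.992), Ryr3 (0.984) and Tub (0.974), and r within genotypes was 0.929, 0.966 and 0.786. Those 3 rose, with log2 differences of 0.57, 0.34 and 0.30. An r of at least 0.9 was reached with Bcl2 by 124 of the 18616 genes (0.666%) and with Bid by 133 (0.714%).

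**Figure D5:**
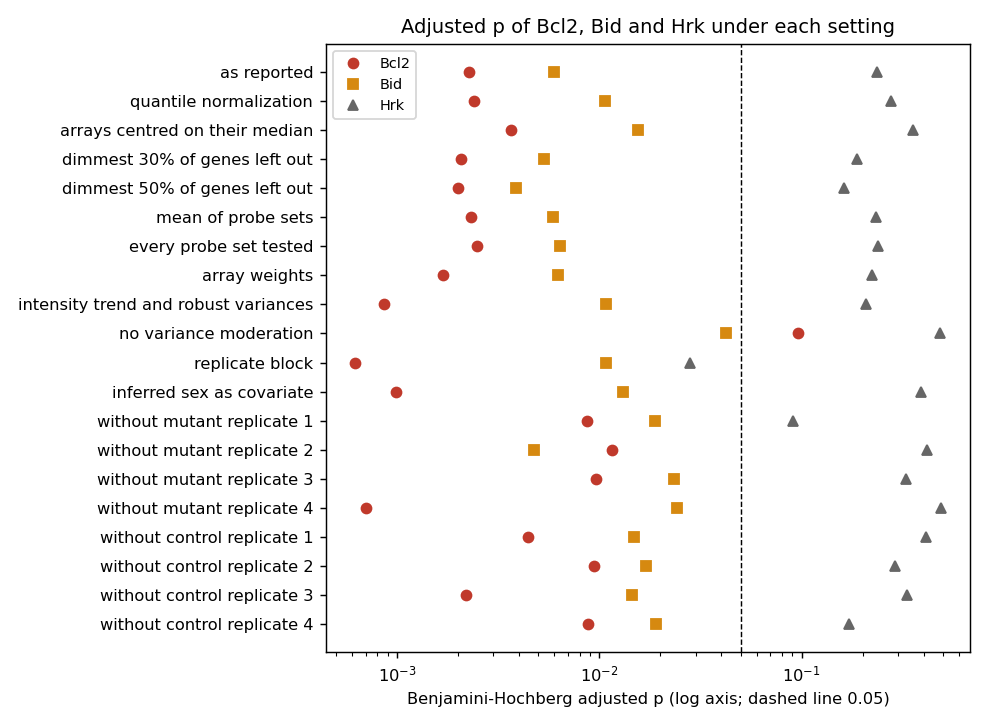
Benjamini-Hochberg adjusted p of Bcl2, Bid and Hrk as reported and under each alternative fit, on a log axis with the threshold of 0.05 dashed. Bcl2 crosses the threshold only without variance moderation (0.0963), Bid stays below it in every fit drawn, and Hrk is above it except with the replicate number as a block (0.0282).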

How the data were processed

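The deposited values are log expression per probe set, taken as log2 and already normalized between arrays by the authors. They run from 2.03 to 13.85. Per the labels, the arrays were analysed by the submitters with BRB-ArrayTools; how background, normalization and probe summaries were handled, and the log base, is not given in the sources used here, and another base would alter folds but not tests. Of 35556 probe sets, 21789 have 1 gene symbol, 1621 several and 12146 none. One-symbol probe sets were kept, the brightest per gene, with no filter on dim genes.

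The 2 genotypes were compared by a linear model on genotype alone (limma 3.58.1, R 4.3.3), two-sided, with moderated variances (6.91 prior degrees of freedom) and Benjamini-Hochberg adjustment over all 19938 genes. The 4 arrays per group limit the precision (median SE 0.077 on the log2 scale), and exact permutation tests over the 70 choices of arrays cannot go below 0.0286. No genome build is named for the arrays, so genes have no positions here, and promoters come from RefSeq. Protein sequences were not used here, so a planned search for BH3 motifs was not run.

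The members and lists were chosen with earlier results of these data known. Named genes are the members, Bcl11a and Bcl6, up to 4 genes past the threshold per pathway list or else that of smallest p, up to 2 per marker list, and the 3 genes most like each riser. When tested on simulated data of 19938 genes, the fit recovered 65 of 67 genes changed by 0.5, 67 of 67 changed by 1 and 66 of 66 changed by 2 on the log2 scale, and 7.48% of its calls were unchanged genes. The simulated noise was normal, independent between genes and free of array effects, with each gene's moderated variance taken as true. These shares therefore check the fit and do not give the power in the real arrays. Alternatives covered normalization, filters on dim genes, probe sets, array weights, variance estimation, thresholds, inferred sex, the replicate number and the omission of each array. By Xist, controls 1 and 3 and mutant 3 were female and the other pups male, so sex was not balanced between genotypes. With inferred sex as a covariate, 680 of all genes changed, against 827 as reported, and Bcl2 and Bid still rose.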

Additional observations from a re-analysis of the deposited data

Results flagged for a closer look

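In the mutant group, the Bid reading of mutant 2, 5.99, lay apart from the other 3 mutants, which read 6.16 to 6.19, by more than the 95% limit of Dixon's test for 4 values. It was the only one of the 18 groups of member values beyond that limit, and chance places about 5% of groups there. It still lay above the highest control, 5.81. Without mutant 2 the log2 difference of Bid was 0.41 (limma, adjusted p = 0.00478).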

How the results depend on the processing

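Under 21 alternatives, the number of members that changed stayed between 1 and 3, against 2 as reported, and was 2 without any 1 array. Without variance moderation 1 member (Bid) and 1 pathway gene (Fbxw7) rose, and 249 of all genes changed, against 827 as reported; at an adjusted p under 0.01, 447 did, and without any 1 array 584 to 814. Bcl2 and Bid kept their direction throughout, with log2 differences of 0.60 to 0.77 and 0.34 to 0.41. The difference of Bcl2l2 ranged from -0.046 to 0.033 and that of Bak1 from -0.020 to 0.076 when 1 array was left out, with the sign of Bcl2l2 turned without mutant 3, control 2 or control 4 and that of Bak1 without mutant 1 or control 1; the cause was not tested. Same-numbered mutant and control arrays had residual correlations of 0.109, 0.056, 0.295 and 0.149, all positive. Of the 8 arrays, 6 correlated best with their own number, so same-numbered arrays tended to vary together. The labels do not say what the numbers share, and the reported fit leaves them out. With the replicate number as a block, 3 members rose: Bcl2, Bid and Hrk (log2 difference 0.27, adjusted p = 0.0282). With the block, 987 of all genes changed. With the dimmest 30% or 50% of genes left out, Bcl2l11 was not tested, nor were Bcl2l2 and Casp6 at 50%. Readings near the floor of 4.31 limit what Bcl2l11 can show.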
